A study of Rattus norvegicus with 23 samples.

Results

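The genes described here serve cholesterol synthesis, its control by the SREBP transcription factors, and sterol transport, storage and efflux. They were chosen by name, as 32 genes placed along this pathway and not by any measured value, though earlier results of these data were known when they were chosen. Of these, 31 were found among the 30452 genes of the rat count table, while Fdps was not matched and is not analysed here. The 31 members are 6 mevalonate enzymes, 3 enzymes that make squalene and lanosterol, 8 enzymes that act after lanosterol, 5 genes of SREBP control, 4 of sterol transport and storage, and 5 of the LXR receptors and efflux.

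NRK-52E (labelled NRKE) is an epithelial line and NRK-49F (labelled NRKF) a fibroblast line, both established from normal rat kidney, and each cell type is represented by this single line. After 24 h in serum-free medium, cells of both lines spent 48 h in medium of pH 7.4 or, acidified with HCl, of pH 6.0. Poly(A) RNA was sequenced from n = 6 samples of NRK-52E at each pH, n = 6 samples of NRK-49F at pH 7.4 and n = 5 at pH 6.0. The comparisons ask how the transcript levels of the sterol genes differed between the acidic and the normal medium in each line, and whether that difference was alike in an epithelial cell and a fibroblast. The labels also divide each line into sample groups, 1 and 3 for NRK-52E and 4 and 6 for NRK-49F, each with samples of both pH values. What a sample group stands for is not given in the sources used here. The study calls its samples biological, but the labels do not say that the replicates were separate cultures, so p-values measure the spread between these samples, which may be technical. In bulk samples of this kind, fewer cells of a type and less RNA per cell cannot be told apart.

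Cells build cholesterol from acetyl-CoA by way of mevalonate, isoprenoid units, squalene and lanosterol. When sterol in the membrane of the endoplasmic reticulum runs low, the escort protein Scap carries the SREBP precursors to the Golgi apparatus, where they are cut to active factors that raise transcription of the synthesis genes, and Insig proteins hold Scap back while sterol is plentiful. Oxysterols in turn activate the LXR receptors, which raise the efflux pumps, and tubule cells of the kidney, like most cells, make part of their own cholesterol in addition to what they take up with lipoproteins.

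The NRK-52E libraries held 17108547 to 32492245 counts at pH 7.4, with a median of 19131834, and 16657666 to 33690997 at pH 6.0, with a median of 17438369. The NRK-49F libraries held 16412564 to 34250535 counts at pH 7.4 (median 24822381) and, at pH 6.0, 16800361 to 31206192 (median 24410964). Levels are given as FPM, the share of a gene in all counts of the tested genes of its library, in ppm, after scaling by TMM, a trimmed mean of the log ratios between libraries. In these libraries 3 counts equal 0.0839 to 0.203 FPM, and this limit allows for counting error alone. The filter for sufficient counts kept 14777 genes, among them 29 of the 31 members. Abcg1 and Nr1h3 did not pass it, with 0 to 9 and 0 to 17 counts in a sample.

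The labels were set against markers of both cell types. Of 9 epithelial markers, 7 were found in the table and 2 were tested, Krt7 and Krt8. Krt8, a keratin gene and the most abundant of them, had a mean of 499 FPM in NRK-52E at pH 7.4 and 222 FPM at pH 6.0, against 839 and 566 FPM in NRK-49F. Krt7 was instead higher in NRK-52E, with 16.5 to 32.4 FPM (median 19.6) at pH 7.4 and 2.50 to 5.45 FPM (median 4.08) at pH 6.0, against 0.466 to 2.24 FPM (median 1.51) at pH 7.4 and 0.306, 0.0610, 0.705, 0.433 and 0.389 FPM at pH 6.0 in NRK-49F. Epcam, Krt18 and Cldn4 were at or under 3 counts in every NRK-52E sample, and in NRK-49F Epcam had 0 to 1, Cldn4 0 to 3 and Krt18 0 to 4 counts apart from 16 in A052. Cdh1 had 0 to 12 counts in NRK-52E and 0 to 4 in NRK-49F, and Cdh16 had 0 to 7 and 0 to 4. These untested genes thus do not tell the lines apart. Of the 2 tested markers, Krt7 alone was higher in NRK-52E. The summed epithelial level was 463 to 683 FPM in NRK-52E at pH 7.4 and 199.5 to 265 FPM at pH 6.0, and 668 to 1207 and 438 to 697 FPM in NRK-49F. Both tested markers fell at pH 6.0 in both lines, against 36.6% of all genes in NRK-52E and 14.4% in NRK-49F. All 9 fibroblast markers were found. Thy1 and Dcn had 0 counts in every NRK-52E sample, and Thy1 had 0 to 4 in NRK-49F. Col3a1, a collagen gene, was nevertheless the most abundant fibroblast marker of NRK-52E, with means of 6149 FPM at pH 7.4 and 2402 FPM at pH 6.0 against 1212 and 433 FPM in NRK-49F, where Col1a1 led the list. Without Col3a1 the summed fibroblast level was 65.3 to 219 FPM in NRK-52E at pH 7.4, and 26.4 to 47.2 FPM at pH 6.0. In NRK-49F that sum was 9093 to 11992 FPM at pH 7.4 and 6615 to 8943 FPM at pH 6.0, without overlap. Of the 7 tested fibroblast markers, 6 fell in NRK-52E and 3 in NRK-49F (Pdgfrb, Col3a1 and Dcn). Col1a1 did not pass in NRK-49F, though its levels were 4856 to 6510 FPM at pH 7.4 and 3185 to 4492 FPM at pH 6.0, without overlap. The NRK-49F ranges of Pdgfra, Col1a2 and Lum, which did not pass either, overlapped. Col1a2, Dcn and Lum passed the count filter only through NRK-49F, and without them 4 of 4 fell in NRK-52E. These marker levels moved with pH alongside the sterol genes, and their part in the results was not tested.

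A few libraries stood apart from the rest of their group. A021 (NRK-52E, pH 7.4) had the highest fibroblast sum without Col3a1, 219 FPM, and A022 came next with 137 FPM. A035, of the same condition, had the highest level of its group in Pmvk, Npc2 and Nr1h2 and the lowest in Stard4, Npc1 and Abca1. A042 (NRK-49F, pH 6.0) had the lowest TMM factor of all libraries, 0.804, and the highest level of its group in 18 of the 29 tested members. Leaving out A021 changed the call of 1 member within NRK-52E, Pmvk. Leaving out A035 or A042 changed no call of a member within a line and 1 call each of the difference between the lines, Abca1 and Ebp respectively. The values behind these changed calls stand with Pmvk, Abca1 and Ebp.

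In NRK-52E cells most of the tested members rose at pH 6.0. The threshold was an adjusted p under 0.05 by the quasi-likelihood test of edgeR, adjusted over all tested genes after Benjamini and Hochberg and called edgeR adjusted p in what follows. Of the 29 tested members, 20 were higher at pH 6.0, against 24.7% of all genes, and 4 were lower (Insig2, Scap, Abca1 and Mylip), against 36.6% of all genes. Mylip passed the count filter only through NRK-49F and could not be tested in NRK-52E by itself, and without it 3 of 28 were lower. The remaining 5 (Mvk, Tm7sf2, Nsdhl, Npc1 and Soat1) did not pass. The median log2 fold change of the members was 1.08, the same with Mylip set to its lower bound, and that of all genes was -0.12. For 19 of the 29 members, 12 of them enzymes, the ranges of the 6 samples at pH 6.0 and the 6 at pH 7.4 did not overlap, against 38.6% of all tested genes, and all 19 passed the test. The median of all genes was -0.12 with TMM over all samples, -0.081 with the size factors of RLE and -0.0023 with NRK-52E fitted alone. The last fit also changes the samples and the genes tested (13377), so the shift of over 0.1 cannot be put down to scaling alone. The fold changes below are relative to a median that such choices move.

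In NRK-49F cells few members moved. Here 1 of the 29 was higher at pH 6.0 (Hsd17b7), against 14.5% of all genes, and 2 were lower (Cyp51 and Soat1), against 14.4% of all genes. Without A043 or A052 there were 2 higher, without A056 3, with the sample group as a block 5, and with NRK-49F fitted alone or with only sample groups 1 and 4 there were 2. The lower count was 1 without A024, A026, A036, A037, A039, A040, A041, A043, A051, A052, A054, A055 or A056, each of which ended the call of Cyp51, 1 with only sample groups 1 and 4, and 4 with only groups 3 and 6. With NRK-49F fitted alone and with the sample group as a block, Sqle also passed as lower, and Cyp51 and Soat1 kept their calls. The median of the members was 0.044 and that of all genes 0.00088 on the log2 scale. Ranges of both pH values were separate for Soat1 alone among the 29 members, and for no enzyme, against 20.6% of all tested genes.

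**Figure D1:**
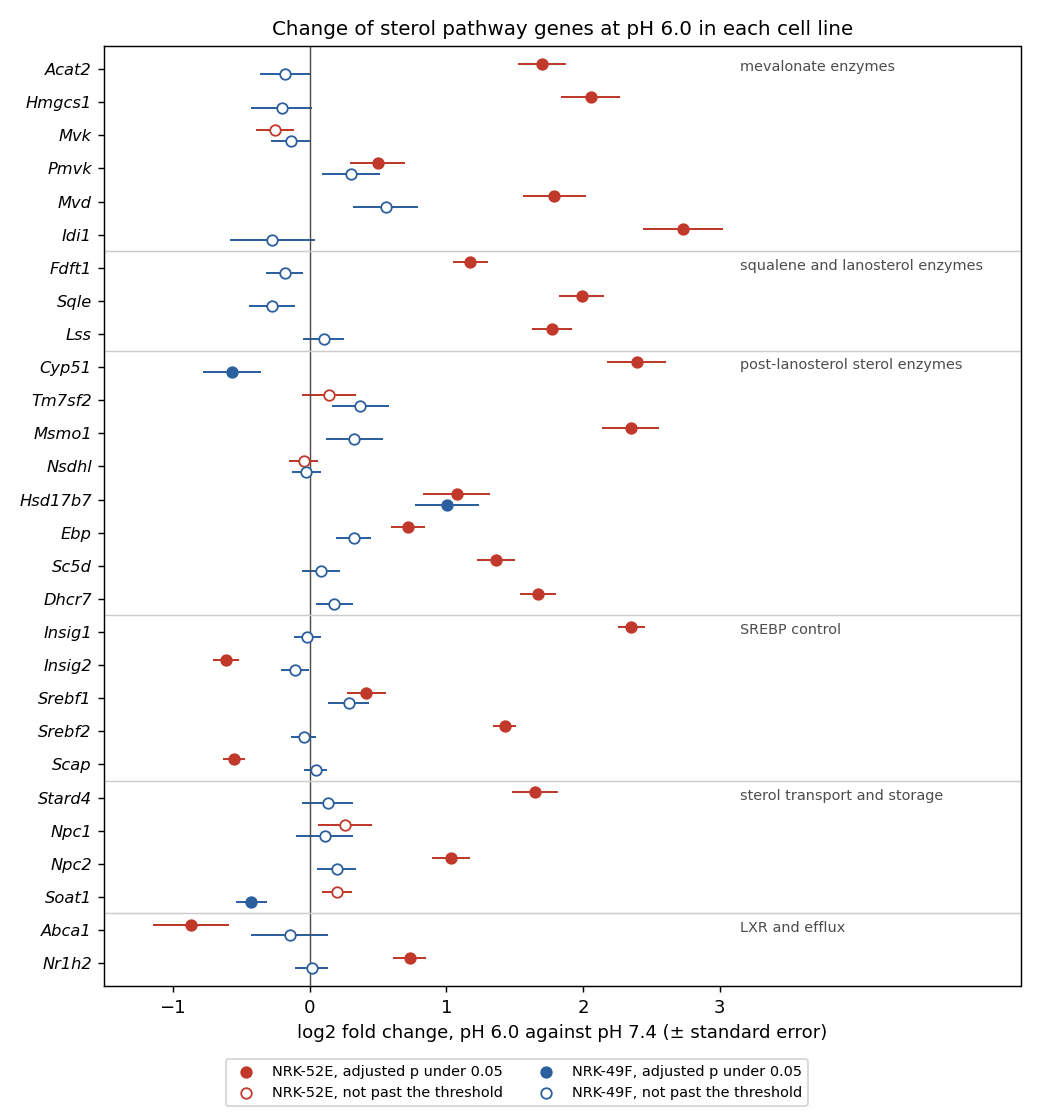
Log2 fold change at pH 6.0 against pH 7.4 (horizontal axis, ± standard error) of 28 tested members in pathway order (vertical axis), in NRK-52E (red) and NRK-49F (blue), with filled points for an edgeR adjusted p under 0.05 and open points otherwise; Mylip, at 0 counts in NRK-52E at pH 6.0, is not drawn. Most filled red points lie to the right of 0, up to 2.73 for Idi1, and 3 blue points are filled.

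Over the 17 enzymes, 14 rose in NRK-52E with a median log2 fold change of 1.67. The 17 log2 fold changes ran from -0.25 for Mvk to 2.73 for Idi1. For each sample, the median over the enzymes of the log2 ratio to the pH 7.4 mean of the line was 1.399 to 1.69 in the 6 NRK-52E samples at pH 6.0. At pH 7.4 it was -0.39, -0.34 and -0.32 in sample group 1 and 0.20, 0.25 and 0.37 in sample group 3. The samples at pH 7.4 thus formed separate levels by sample group, both far below every sample at pH 6.0. In NRK-49F the same value was -0.16 to 0.089 at pH 7.4 and 0.27, -0.091, 0.018, -0.078 and -0.20 in A042, A043, A054, A055 and A056 at pH 6.0. A042 was highest, and the other samples at pH 6.0 lay close to the range at pH 7.4.

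The mevalonate enzymes turn acetyl-CoA into the isoprenoid unit. In NRK-52E 5 of the 6 rose, with a median of 1.75, and in NRK-49F 0 of 6 passed edgeR's test, 1 (Mvd) had an unadjusted p under 0.05, and DESeq2 called 0. Hmgcs1, the cytosolic HMG-CoA synthase, ranged from 26.3 to 71.2 FPM (median 40.5) in NRK-52E at pH 7.4 and from 127 to 248 FPM (median 193) at pH 6.0. In NRK-49F it ranged from 26.7 to 35.2 FPM (median 31.3) at pH 7.4 and was 33.6, 25.2, 25.2, 24.8 and 26.3 FPM in the 5 samples at pH 6.0. All 6 NRK-52E samples at pH 6.0 lay above all 6 at pH 7.4, while in NRK-49F the ranges overlapped and A042 was the high sample. The log2 fold change was 2.06 (SE 0.22, edgeR adjusted p = 1.82e-08) in NRK-52E, or 4.16-fold, and -0.20 (SE 0.22, edgeR adjusted p = 0.541) in NRK-49F. Idi1, the isomerase that makes dimethylallyl diphosphate, had the largest rise among the 29 tested members. It ranged from 4.25 to 14.0 FPM (median 6.61) in NRK-52E at pH 7.4 and from 33.6 to 72.1 FPM (median 53.99) at pH 6.0. The NRK-49F samples had 3.11 to 7.73 FPM (median 5.68) at pH 7.4 and 6.52, 4.51, 4.15, 3.50 and 4.50 FPM at pH 6.0. Again every NRK-52E sample at pH 6.0 exceeded every sample at pH 7.4, and the NRK-49F ranges overlapped. Its log2 fold change in NRK-52E was 2.73 (SE 0.29, edgeR adjusted p = 2.32e-08), a 6.64-fold rise, and that in NRK-49F was -0.27 (SE 0.31). Reads of Idi1 and of its paralog Idi2, which is also in the table, could be shared.

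Acat2, the thiolase that joins acetyl-CoA units, and Mvd, the mevalonate diphosphate decarboxylase, rose alongside in NRK-52E. Acat2 ranged from 15.8 to 30.2 FPM (median 23.03) at pH 7.4 and from 60.8 to 93.6 FPM (median 74.8) at pH 6.0 in NRK-52E, and its counts could include reads of the related gene Acat2l1. Mvd ranged from 7.53 to 17.3 FPM (median 9.79) at pH 7.4 and from 33.2 to 50.5 FPM (median 38.1) at pH 6.0. Neither gene's ranges overlapped in this line. The log2 fold changes were 1.70 (SE 0.18, edgeR adjusted p = 1.61e-08) for Acat2 and 1.79 (SE 0.23, edgeR adjusted p = 4.27e-07) for Mvd. In NRK-49F, Acat2 ranged from 32.0 to 39.3 FPM (median 34.6) at pH 7.4 and was 44.5, 24.0, 30.6, 32.1 and 24.4 FPM at pH 6.0, with a log2 fold change of -0.18 (SE 0.18). Mvd ranged there from 7.96 to 13.0 FPM (median 12.3) at pH 7.4 and was 28.5, 12.2, 14.7, 17.4 and 10.499 FPM at pH 6.0, with A042 far above the rest. Its log2 fold change in NRK-49F was 0.56 (SE 0.24) and did not pass, but it did pass without A056 (0.68), with only sample groups 1 and 4 (0.91) and with the sample group as a block (0.56). Without A042 it was 0.28 and with only sample groups 3 and 6 it was 0.27, and neither passed.

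Pmvk and Mvk, the kinases that phosphorylate mevalonate in turn, moved least among the mevalonate enzymes in NRK-52E. In NRK-52E, Pmvk ranged from 35.1 to 65.8 FPM (median 39.98) at pH 7.4 and from 39.5 to 84.8 FPM (median 61.9) at pH 6.0. The ranges overlapped, with 3 samples at pH 6.0 above the highest at pH 7.4, which was A035 at 65.8 FPM. This was a log2 fold change of 0.50 (SE 0.20, edgeR adjusted p = 0.0364). This call was lost without A021 (0.47), A022 (0.47), A023 (0.44), A033 (0.49), A034 (0.47), A036 (0.42), A037 (0.45) or A038 (0.39), and with only sample groups 1 and 4 (0.24). Without A035 the call was kept (0.65). Mvk ranged from 12.2 to 24.1 FPM (median 14.97) in NRK-52E at pH 7.4 and from 11.9 to 14.2 FPM (median 14.0) at pH 6.0. All 6 samples at pH 6.0 were below the mean at pH 7.4, and 1, A025, was below its range. A log2 fold change of -0.25 (SE 0.14) did not pass, though it did without A022 (-0.32) and with only sample groups 3 and 6 (-0.49), and it was 0.042 with only sample groups 1 and 4. Without A035, the highest sample at pH 7.4, it was -0.11 and did not pass. In NRK-49F, Pmvk had 42.04 to 68.2 FPM (median 48.8) at pH 7.4 and 97.8, 47.6, 57.7, 64.1 and 46.5 FPM at pH 6.0, with A042 the high sample. Mvk had 27.8 to 37.3 FPM (median 29.5) in NRK-49F at pH 7.4 and 35.98, 24.6, 28.4, 27.3 and 24.3 FPM at pH 6.0, and here too A042 was highest. The log2 fold changes there were 0.30 (SE 0.21) for Pmvk and -0.14 (SE 0.14) for Mvk, and neither passed. Without A042 they were 0.085 for Pmvk and -0.24 for Mvk, and again neither passed.

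The 3 enzymes that lead to lanosterol all rose in NRK-52E, with a median log2 fold change of 1.77, and 0 of 3 passed edgeR's test in NRK-49F, where 0 had an unadjusted p under 0.05 and DESeq2 called 0. Fdft1 makes squalene from farnesyl diphosphate. It ranged from 71.9 to 109 FPM (median 86.6) in NRK-52E at pH 7.4 and from 187 to 224 FPM (median 199.8) at pH 6.0, without overlap. Its log2 fold change was 1.17 (SE 0.13, edgeR adjusted p = 2.83e-08), the smallest of the 3. In NRK-49F it was -0.18 (SE 0.13), with levels of 27.6 to 39.7 FPM (median 31.2) at pH 7.4 and 38.7, 29.0, 25.3, 26.6 and 22.3 FPM at pH 6.0, and with only sample groups 3 and 6 it passed (-0.44). Sqle, the squalene epoxidase and a rate-limiting step of the later pathway, ranged from 18.5 to 42.7 FPM (median 28.6) in NRK-52E at pH 7.4 and from 96.4 to 137 FPM (median 117) at pH 6.0. Levels in NRK-49F were 43.3 to 51.7 FPM (median 46.3) at pH 7.4 and 46.4, 35.7, 38.5, 38.4 and 35.2 FPM at pH 6.0. The NRK-52E ranges lay wide apart. In NRK-49F 4 of the 5 samples at pH 6.0 were below the range at pH 7.4 and A042 was inside it. The test gave a log2 fold change of 1.99 (SE 0.16, edgeR adjusted p = 3.79e-10) in NRK-52E, a 3.97-fold rise. In NRK-49F it was -0.27 (SE 0.17, edgeR adjusted p = 0.244), but with this line fitted alone (-0.28), with the sample group as a block (-0.27) and with only sample groups 3 and 6 (-0.36) it passed as a fall.

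Lss closes the ring of squalene epoxide to lanosterol. In NRK-52E it ranged from 18.3 to 29.1 FPM (median 20.8) at pH 7.4 and from 65.1 to 96.0 FPM (median 72.6) at pH 6.0. NRK-49F had 32.4 to 42.3 FPM (median 36.2) at pH 7.4 and 26.4, 49.1, 36.9, 32.9 and 50.9 FPM at pH 6.0. The groups were separate in NRK-52E and overlapped in NRK-49F, where A042 was the lowest sample at pH 6.0, unlike in most other enzymes. For this gene the log2 fold change was 1.77 (SE 0.15, edgeR adjusted p = 3.29e-10) in NRK-52E and 0.10 (SE 0.15) in NRK-49F.

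Of the 8 enzymes that act after lanosterol, 6 rose in NRK-52E (median 1.22), and in NRK-49F 1 rose and 1 fell (median 0.25). Cyp51, the lanosterol demethylase, ranged from 27.8 to 63.5 FPM (median 40.96) in NRK-52E at pH 7.4 and from 158 to 311 FPM (median 224) at pH 6.0. In NRK-49F it ranged from 96.9 to 152 FPM (median 117) at pH 7.4 and was 111, 72.8, 69.8, 79.2 and 69.2 FPM at pH 6.0. The groups were separate in NRK-52E, and in NRK-49F 4 of the 5 samples at pH 6.0 lay below every sample at pH 7.4, with A042 the exception. Cyp51 was the only member that passed the test in opposite directions. Its log2 fold change was 2.39 (SE 0.21, edgeR adjusted p = 1.27e-09) in NRK-52E, a 5.25-fold rise, and -0.57 (SE 0.21, edgeR adjusted p = 0.0499) in NRK-49F. The call in NRK-49F lay at the threshold. It was lost without A024, A026, A036, A037, A041 or A051 (-0.57 each), A039 or A040 (-0.58 each), A043 (-0.53), A052 (-0.49), A054 or A056 (-0.52 each) or A055 (-0.56), and with only sample groups 1 and 4 (-0.33). Without A042 it was kept (-0.71).

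Msmo1, the sterol C4 methyl oxidase, ranged from 26.3 to 56.1 FPM (median 44.8) in NRK-52E at pH 7.4 and from 154 to 285 FPM (median 213) at pH 6.0. The NRK-49F samples had 47.6 to 72.6 FPM (median 54.5) at pH 7.4 and 97.6, 61.9, 69.7, 72.7 and 54.8 FPM at pH 6.0. Every NRK-52E sample at pH 6.0 exceeded every sample at pH 7.4, and in NRK-49F A042 was again the highest. The log2 fold change was 2.35 (SE 0.21, edgeR adjusted p = 1.20e-09) in NRK-52E. In NRK-49F it was 0.33 (SE 0.21), and it passed with the sample group as a block (0.33) and with only sample groups 1 and 4 (0.58). Without A042 it was 0.19 and did not pass. Dhcr7, which catalyses the last reduction to cholesterol, ranged from 9.77 to 17.5 FPM (median 15.2) in NRK-52E at pH 7.4 and from 37.4 to 52.6 FPM (median 48.6) at pH 6.0. Levels in NRK-49F were 19.6 to 24.99 FPM (median 24.4) at pH 7.4 and 32.6, 26.2, 26.1, 25.1 and 24.1 FPM at pH 6.0. Within NRK-52E at pH 6.0 the samples of group 1 were the high ones, opposite to Hmgcs1, Idi1, Sqle, Cyp51 and Msmo1, where group 3 was higher. Dhcr7 had a log2 fold change of 1.67 (SE 0.13, edgeR adjusted p = 1.72e-10) in NRK-52E and 0.18 (SE 0.13) in NRK-49F.

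Hsd17b7, a 3-ketosteroid reductase, was the only member that rose in both lines, at low counts. It ranged from 0.839 to 1.19 FPM (median 0.987) in NRK-52E at pH 7.4 (17 to 30 counts) and from 1.16 to 3.25 FPM (median 2.14) at pH 6.0. NRK-49F had 1.89 to 3.22 FPM (median 2.20) at pH 7.4 and 2.96, 6.22, 4.38, 4.58 and 6.22 FPM at pH 6.0. In NRK-52E 5 of 6 samples, and in NRK-49F 4 of 5, lay above the highest sample at pH 7.4. The log2 fold changes were 1.08 (SE 0.25, edgeR adjusted p = 5.71e-04) in NRK-52E and 1.01 (SE 0.23, edgeR adjusted p = 0.00197) in NRK-49F. When sample groups 1 and 4 were analysed alone, both calls were lost (0.67 and 0.93). Sc5d, the sterol C5 desaturase, ranged from 11.8 to 18.8 FPM (median 15.5) in NRK-52E at pH 7.4 and from 28.7 to 51.8 FPM (median 39.6) at pH 6.0, without overlap, with a log2 fold change of 1.36 (SE 0.14, edgeR adjusted p = 8.89e-09). Sc5d had 21.2 to 25.5 FPM (median 22.9) in NRK-49F at pH 7.4 and 21.2, 24.1, 27.1, 21.8 and 27.7 FPM at pH 6.0, where its log2 fold change was 0.084 (SE 0.14). Ebp, the sterol isomerase, ranged from 17.7 to 24.9 FPM (median 23.01) in NRK-52E at pH 7.4 and from 28.9 to 42.2 FPM (median 36.2) at pH 6.0, also without overlap. For this gene the log2 fold change was 0.72 (SE 0.12, edgeR adjusted p = 2.14e-05), and reads could be shared with its paralog Ebpl. The NRK-49F levels of Ebp were 22.9 to 29.4 FPM (median 23.3) at pH 7.4 and 40.3, 23.05, 32.5, 30.9 and 27.0 FPM at pH 6.0, with 3 of 5 samples above the highest at pH 7.4. The change there was 0.32 (SE 0.13) and did not pass, though it did without A043 (0.41), A052 (0.38) or A056 (0.37) and with the sample group as a block (0.32). Without A042, the highest sample, it was 0.21 and did not pass. Tm7sf2, a sterol C14 reductase, and Nsdhl, the C4 decarboxylase, did not pass in either line. Tm7sf2 ranged from 11.2 to 25.3 FPM (median 17.0) in NRK-52E at pH 7.4 and from 16.8 to 24.4 FPM (median 18.8) at pH 6.0, and in NRK-49F from 7.54 to 11.9 FPM (median 9.33) at pH 7.4 with 18.3, 10.9, 11.6, 12.6 and 7.56 FPM at pH 6.0. Its log2 fold changes were 0.14 (SE 0.20) in NRK-52E and 0.37 (SE 0.21) in NRK-49F. With each library left out in turn, they ran from 0.040 to 0.27 in NRK-52E and from 0.18 to 0.50 in NRK-49F. None of these passed. With only sample groups 1 and 4 Tm7sf2 rose in NRK-52E (0.63), while the value there with only groups 3 and 6 was -0.21. Nsdhl ranged from 17.8 to 25.1 FPM (median 20.6) at pH 7.4 and from 19.1 to 22.6 FPM (median 20.1) at pH 6.0 in NRK-52E, and in NRK-49F from 16.8 to 23.3 FPM (median 21.3) at pH 7.4 with 22.4, 20.2, 18.8, 20.7 and 17.7 FPM at pH 6.0. The ranges overlapped in both lines, with log2 fold changes of -0.044 (SE 0.10) in NRK-52E and -0.024 (SE 0.11) in NRK-49F. With NRK-52E fitted alone the value was 0.045.

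**Figure D2:**
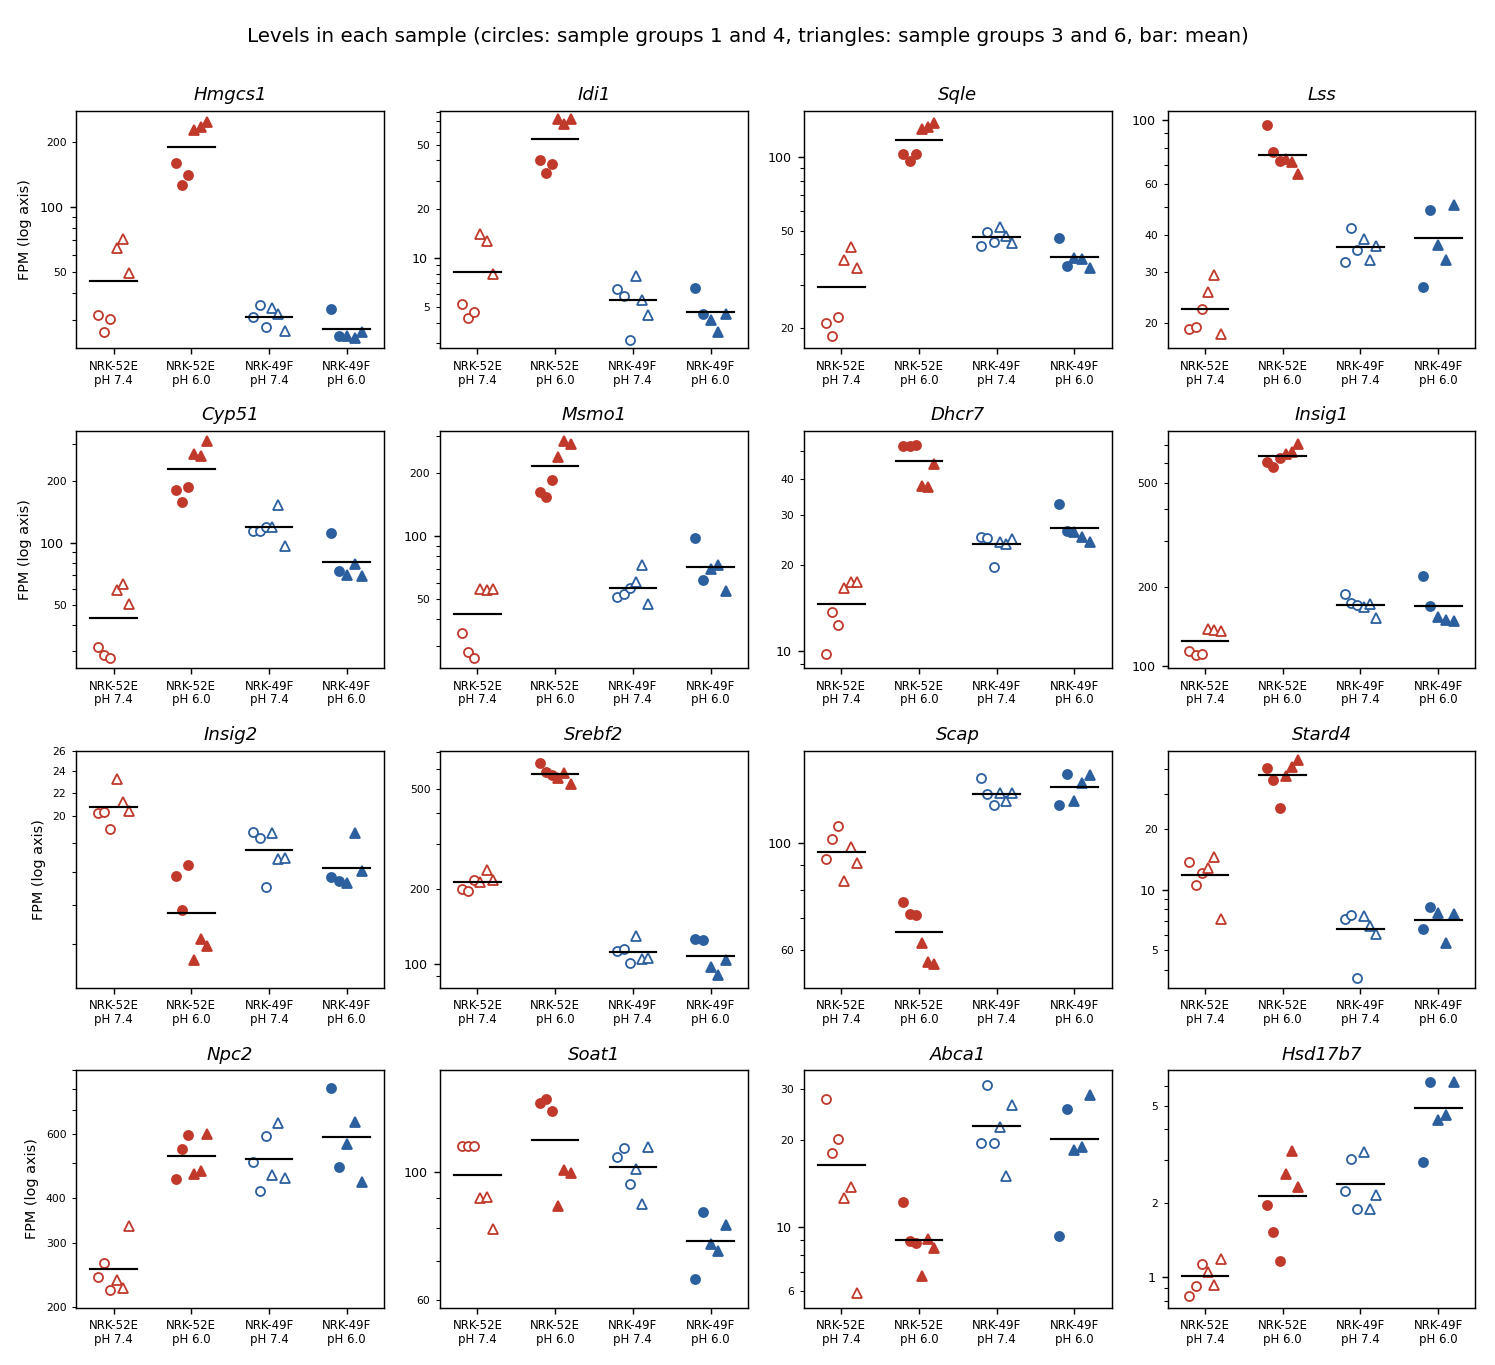
Levels of 16 members in each sample (vertical axis, FPM on a log scale) in the 4 conditions (horizontal axis), with circles for sample groups 1 and 4, triangles for groups 3 and 6, open symbols for pH 7.4, filled symbols for pH 6.0 and a bar at the mean. In NRK-52E the groups are apart for Hmgcs1, Idi1, Sqle and Insig1, and Insig2 and Scap lie lower at pH 6.0.

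The genes of SREBP control split in NRK-52E, where 3 of 5 rose (Insig1, Srebf1 and Srebf2) and 2 fell (Insig2 and Scap), with a median log2 fold change of 0.42. In NRK-49F 0 of 5 passed edgeR's test, 0 had an unadjusted p under 0.05, and DESeq2 called 0. Insig1, which retains Scap in the endoplasmic reticulum and is itself an SREBP target, ranged from 109.8 to 139 FPM (median 125) in NRK-52E at pH 7.4 and from 579 to 710.3 FPM (median 634) at pH 6.0. In NRK-49F it ranged from 152 to 188 FPM (median 172) at pH 7.4 and was 222, 170.1, 154, 149.8 and 149 FPM at pH 6.0. The NRK-52E ranges were separate, with group 1 below group 3 at either pH. In NRK-49F A042 was above the range at pH 7.4 and A055 and A056 just below it. This was a log2 fold change of 2.35 (SE 0.10, edgeR adjusted p = 7.60e-15) in NRK-52E, or 5.11-fold, and -0.018 (SE 0.10) in NRK-49F. Insig2, the second retention protein, went the other way. It ranged from 19.0 to 23.3 FPM (median 20.4) in NRK-52E at pH 7.4 and from 11.3 to 16.4 FPM (median 13.0) at pH 6.0. The NRK-49F samples had 15.1 to 18.8 FPM (median 17.6) at pH 7.4 and 15.7, 15.4, 15.3, 18.7 and 16.1 FPM at pH 6.0. All 6 NRK-52E samples at pH 6.0 lay below all 6 at pH 7.4. The test gave a log2 fold change of -0.61 (SE 0.10, edgeR adjusted p = 8.64e-06) in NRK-52E, 1.53-fold lower, and in NRK-49F it was -0.10 (SE 0.10).

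Srebf2 encodes SREBP-2, the main activator of cholesterol synthesis genes. It ranged from 195 to 238 FPM (median 214) in NRK-52E at pH 7.4 and from 523 to 632 FPM (median 571) at pH 6.0. Levels in NRK-49F were 101 to 129 FPM (median 109.6) at pH 7.4 and 126, 124, 97.3, 90.2 and 104 FPM at pH 6.0. The NRK-52E ranges did not overlap, and the NRK-49F ranges did. The log2 fold change was 1.43 (SE 0.085, edgeR adjusted p = 1.56e-12) in NRK-52E, 2.69-fold higher, and -0.044 (SE 0.088) in NRK-49F. Srebf1 encodes SREBP-1, which acts more on fatty acid synthesis. In NRK-52E it ranged from 74.7 to 137 FPM (median 95.2) at pH 7.4 and from 99.3 to 163 FPM (median 139) at pH 6.0, so the pooled ranges overlapped. Within sample group 1 the levels were 109 to 137 FPM at pH 7.4 and 156 to 163 FPM at pH 6.0, and within group 3 they were 74.7 to 81.4 and 99.3 to 122 FPM. Inside each sample group the pH values were thus separate. This was a log2 fold change of 0.42 (SE 0.14, edgeR adjusted p = 0.0144) in NRK-52E. In NRK-49F Srebf1 ranged from 72.0 to 86.8 FPM (median 79.0) at pH 7.4 and was 93.3, 101, 86.5, 91.5 and 106 FPM at pH 6.0, with 4 of 5 samples above the highest at pH 7.4. Its log2 fold change of 0.29 (SE 0.15) did not pass there, though it did with the line fitted alone (0.28) and with the sample group as a block (0.29). Scap, the SREBP escort, ranged from 83.4 to 108 FPM (median 95.4) in NRK-52E at pH 7.4 and from 56.2 to 75.5 FPM (median 66.5) at pH 6.0, without overlap. Its log2 fold change was -0.55 (SE 0.079, edgeR adjusted p = 2.14e-06) in NRK-52E and 0.044 (SE 0.083) in NRK-49F, where it ranged from 119.9 to 136 FPM (median 127) at pH 7.4 and was 120.0, 139, 122, 133 and 138 FPM at pH 6.0.

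Among the 4 genes of sterol transport and storage, 2 rose in NRK-52E (Stard4 and Npc2; median 0.65) and 1 fell in NRK-49F (Soat1). Stard4, a carrier of cholesterol through the cytosol, ranged from 7.13 to 14.5 FPM (median 12.4) in NRK-52E at pH 7.4 and from 25.6 to 44.0 FPM (median 38.6) at pH 6.0. NRK-49F had 3.65 to 7.47 FPM (median 6.90) at pH 7.4 and 6.37, 8.23, 7.71, 5.45 and 7.61 FPM at pH 6.0. The NRK-52E groups were separate, with A035 the lowest at pH 7.4, and the low NRK-49F sample at pH 7.4 was A041. The test gave a log2 fold change of 1.65 (SE 0.17, edgeR adjusted p = 1.41e-08) in NRK-52E and 0.13 (SE 0.18) in NRK-49F. Npc2, which hands cholesterol over inside the lysosome, ranged from 223 to 335 FPM (median 240.3) in NRK-52E at pH 7.4 and from 450.4 to 600.0 FPM (median 510.2) at pH 6.0. In NRK-49F it ranged from 419.6 to 646 FPM (median 483) at pH 7.4 and was 804, 486, 563, 649.6 and 443 FPM at pH 6.0. At pH 6.0 the NRK-52E samples had come into the range that NRK-49F samples had at either pH. The log2 fold change was 1.04 (SE 0.14, edgeR adjusted p = 8.16e-07) in NRK-52E and 0.20 (SE 0.14) in NRK-49F. Without A042, the highest NRK-49F sample, the value of Npc2 in that line was 0.061. Npc1, its partner in the lysosomal membrane, ranged from 22.5 to 55.5 FPM (median 46.8) in NRK-52E at pH 7.4 and from 39.1 to 68.9 FPM (median 49.2) at pH 6.0, with 2 samples above the highest at pH 7.4. In NRK-49F, Npc1 ranged from 35.2 to 60.6 FPM (median 47.1) at pH 7.4 and was 30.3, 69.0, 51.7, 41.9 and 60.4 FPM at pH 6.0. It did not pass in either line, with 0.26 (SE 0.20) in NRK-52E and 0.11 (SE 0.21) in NRK-49F. Without A035, the lowest Npc1 sample of NRK-52E at pH 7.4 (22.5 FPM), the first value was 0.13.

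Soat1 esterifies cholesterol for storage in droplets. The NRK-49F samples had 87.9 to 110.4 FPM (median 104) at pH 7.4 and 65.2, 85.2, 74.9, 72.8 and 81.0 FPM at pH 6.0. In NRK-52E it ranged from 79.4 to 111 FPM (median 101) at pH 7.4 and from 87.3 to 134 FPM (median 114) at pH 6.0. All 5 NRK-49F samples at pH 6.0 lay below all 6 at pH 7.4, while in NRK-52E the ranges overlapped and the samples of group 1 were high at both pH values. This was a log2 fold change of -0.42 (SE 0.11, edgeR adjusted p = 0.00700) in NRK-49F, 1.34-fold lower. In NRK-52E it was 0.20 (SE 0.11), which passed without A036 (0.27) and with the sample group as a block (0.19).

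Of the 3 tested genes of the LXR receptors and efflux, 1 rose in NRK-52E (Nr1h2) and 2 passed as lower (Abca1 and, at the floor of counts, Mylip), and in NRK-49F 0 passed edgeR's test, 0 had an unadjusted p under 0.05, and DESeq2 called 0. Abca1, the pump that loads cholesterol onto lipoprotein particles, ranged from 5.89 to 27.6 FPM (median 15.8) in NRK-52E at pH 7.4 and from 6.76 to 12.2 FPM (median 8.83) at pH 6.0. Levels in NRK-49F were 14.98 to 31.0 FPM (median 20.8) at pH 7.4 and 9.27, 25.5, 18.4, 18.8 and 28.6 FPM at pH 6.0. In NRK-52E all 6 samples at pH 6.0 were under the mean at pH 7.4, but A035 had the lowest level of either pH and A021 the highest. The test gave a log2 fold change of -0.87 (SE 0.28, edgeR adjusted p = 0.00910) in NRK-52E, -1.04 without A035 and -0.65 without A021. With only sample groups 3 and 6, the first of which holds A035, the call was lost (-0.41). In NRK-49F the log2 fold change was -0.15 (SE 0.28), or 0.035 without A042, the lowest sample. Nr1h2, the LXR beta gene, ranged from 132 to 192 FPM (median 139.7) in NRK-52E at pH 7.4 and from 211 to 313 FPM (median 239) at pH 6.0, without overlap. NRK-49F had 141 to 186 FPM (median 159) at pH 7.4 and 202, 139, 152, 186 and 141 FPM at pH 6.0. The log2 fold change was 0.73 (SE 0.12, edgeR adjusted p = 1.07e-05) in NRK-52E and 0.015 (SE 0.12) in NRK-49F.

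Mylip, an LXR-induced ubiquitin ligase that removes lipoprotein receptors, was close to absent from the NRK-52E libraries. At pH 7.4 it had 21 counts in A021, 6 in A022, 1 in A034, 1 in A035 and 0 in A023 and A033, and at pH 6.0 it had 0 counts in all 6 samples. Against 3 counts, the level at pH 6.0 was at least 1.16-fold lower than at pH 7.4. Without A021 the mean at pH 7.4 was 0.0868 FPM, under the mean level of 3 counts at pH 6.0 (0.147 FPM), so no fold can be given. Mylip passed the count filter only through NRK-49F (399 to 939 counts) and could not be tested with NRK-52E alone, so its pass as lower shows no more than these few counts. The call was lost with only sample groups 3 and 6. A021 and A022 were also the samples with the highest fibroblast sums without Col3a1, and the part of that signal in the counts of Mylip was not tested. In NRK-49F Mylip ranged from 26.8 to 32.7 FPM (median 29.3) at pH 7.4 and was 25.1, 33.1, 34.8, 32.7 and 34.8 FPM at pH 6.0, with a log2 fold change of 0.13 (SE 0.26). Nr1h3, the LXR alpha gene, and the pump gene Abcg1 were too low to test. Abcg1 had at most 9 counts, in A021, and Nr1h3 at most 17, in A026, which leaves differences between the groups not detectable at this depth.

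**Figure D3:**
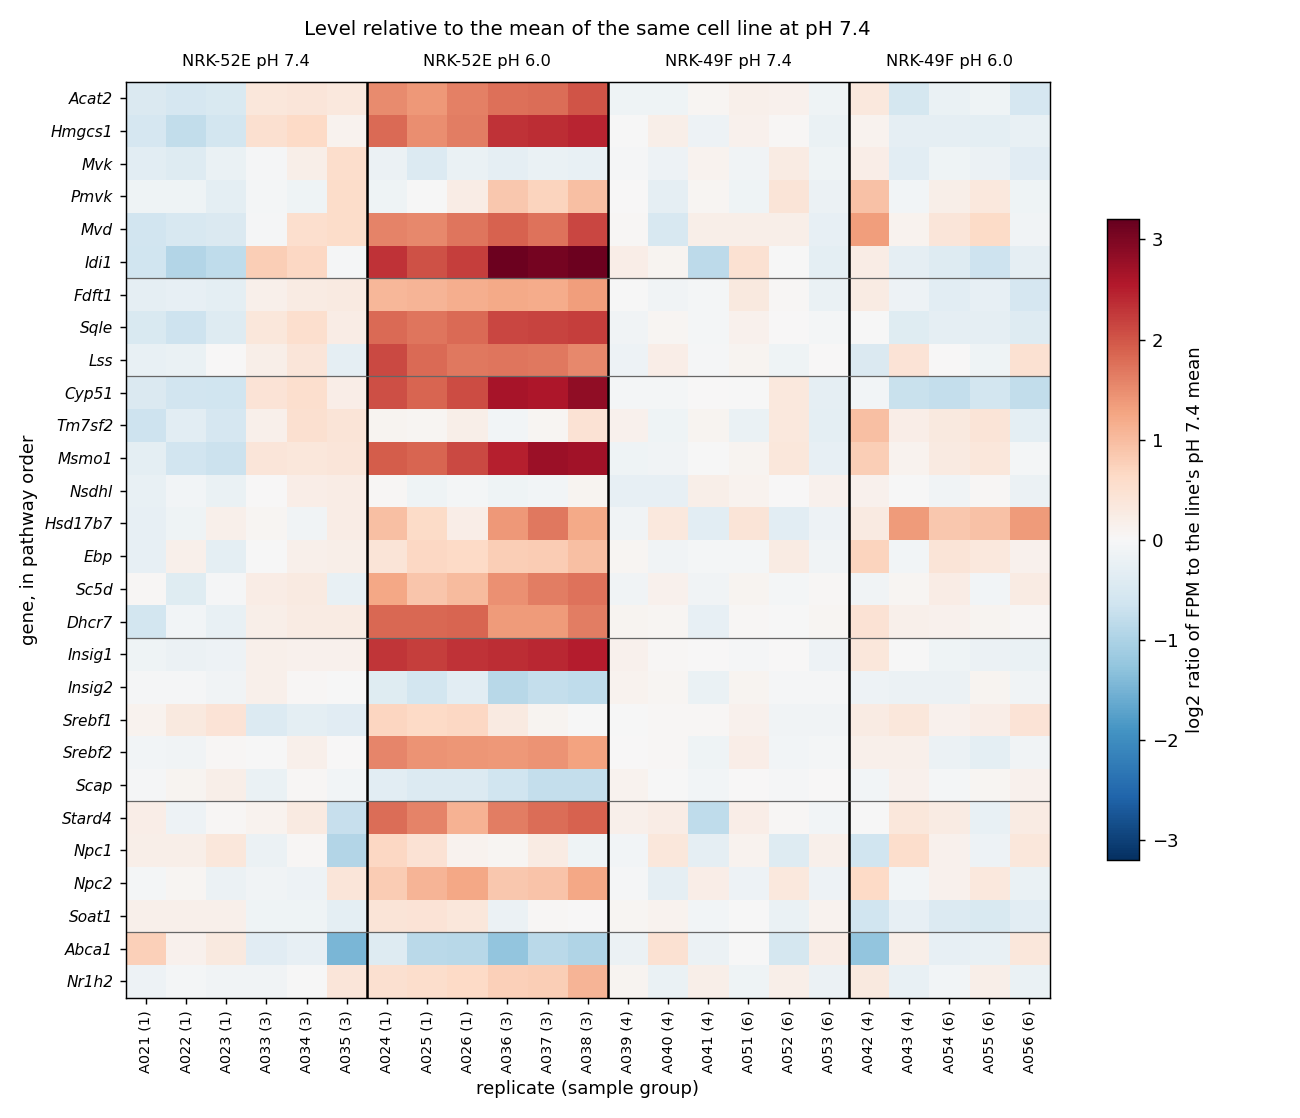
Log2 ratio of the FPM level to the mean of the same line at pH 7.4 (colour, red higher and blue lower) for 28 tested members (vertical axis, pathway order) in each of the 23 samples (horizontal axis, sample group in brackets). The 6 NRK-52E samples at pH 6.0 share dark red cells along the enzymes, and A042 is the reddest column of NRK-49F at pH 6.0.

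The change itself was compared between the lines by a test of the difference of the log2 fold changes. It differed for 20 of 29 members, against 41.4% of all genes. In 17 the difference was towards NRK-52E (Acat2, Hmgcs1, Mvd, Idi1, Fdft1, Sqle, Lss, Cyp51, Msmo1, Sc5d, Dhcr7, Insig1, Srebf2, Stard4, Npc2, Soat1 and Nr1h2) and in 3 it was the reverse (Insig2, Scap and Mylip). Of all 14777 genes, 2476 differed towards NRK-52E and 3644 in reverse. The difference of Mylip rests on 29 counts in NRK-52E, 21 of them in A021, and is not read as a difference in response. Over the 28 members that could be tested in both lines, 19 differed, 17 towards NRK-52E and 2 in reverse. The largest differences towards NRK-52E were those of Idi1 (3.00, SE 0.43, edgeR adjusted p = 5.23e-06) and Cyp51 (2.96, SE 0.30, edgeR adjusted p = 5.47e-08), and that of Insig1 was 2.37 (SE 0.14, edgeR adjusted p = 1.14e-11). Of the 18 members that were higher in NRK-52E and passed in neither direction in NRK-49F, 15 differed by this test. For Pmvk (0.20, SE 0.29), Ebp (0.40, SE 0.18) and Srebf1 (0.13, SE 0.21) a difference was not shown. Ebp passed without A024 (0.46) or A042 (0.51), with the size factors of RLE (0.45) or DESeq2 (0.45), and with only sample groups 3 and 6 (0.49). For Hsd17b7, which rose in both lines, the difference was 0.067 (SE 0.33). For Abca1 it was -0.72 (SE 0.39), and it passed without A035 (-0.89). With only sample groups 1 and 4 the differences of Insig2 (-0.20) and Npc2 (0.78) were no longer past the threshold, and with only sample groups 3 and 6 that of Mylip was not.

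At pH 7.4 the lines differed in 19 of the 29 members. Such differences were common, since 5166 of the 14777 tested genes passed with more transcript in NRK-52E and 5004 with less. The count of 19 thus does not set the members apart from other genes. Among the members, 7 were higher in NRK-52E, against 35% of all genes, and 12 lower, against 33.9% of all genes. The higher ones were Hmgcs1, Fdft1, Tm7sf2, Insig2, Srebf1, Srebf2 and Stard4. For Hmgcs1 the NRK-52E samples of group 1 (26.3 to 31.5 FPM) lay at the level of NRK-49F (26.7 to 35.2 FPM) and those of group 3 (49.4 to 71.2 FPM) above it. For Srebf1 it was group 3 (74.7 to 81.4 FPM) that lay at the NRK-49F level (72.0 to 86.8 FPM) and group 1 (109 to 137 FPM) above it. The lower ones were Acat2, Mvk, Sqle, Lss, Cyp51, Hsd17b7, Sc5d, Dhcr7, Insig1, Scap, Npc2 and Mylip. Mylip, with 0 to 21 counts in NRK-52E and 399 to 863 in NRK-49F at pH 7.4, passed the count filter only through NRK-49F, and without it 11 of 28 were lower. Fdft1 was 2.77-fold higher in NRK-52E (log2 1.47, SE 0.13, edgeR adjusted p = 3.34e-10) and Srebf2 1.91-fold (log2 0.93, SE 0.084, edgeR adjusted p = 5.71e-10). Cyp51 was 2.75-fold lower (log2 -1.46, SE 0.21, edgeR adjusted p = 1.12e-06) and Npc2 2.01-fold lower (log2 -1.01, SE 0.14, edgeR adjusted p = 6.84e-07). Sqle, Lss, Cyp51, Dhcr7 and Acat2 were thus lower in NRK-52E than in NRK-49F at pH 7.4, and at pH 6.0 all of their NRK-52E samples lay above every NRK-49F sample of either pH.

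The sample groups allow the comparison of pH within each. In NRK-52E 19 members were higher and 4 lower (Mylip among them) in sample group 1, against 18.8% and 30.1% of all genes, and 20 were higher and 3 lower in sample group 3, against 23.8% and 33.6% of all genes. Hmgcs1 was 26.3 to 31.5 FPM in group 1 and 49.4 to 71.2 FPM in group 3 at pH 7.4, and 127 to 159 and 227 to 248 FPM at pH 6.0. Idi1 was 4.25 to 5.23 and 7.98 to 14.0 FPM at pH 7.4, and 33.6 to 40.5 and 67.5 to 72.1 FPM at pH 6.0. Both genes lay higher in group 3 at either pH, a difference that was not tested, and rose in both groups. The log2 fold changes were 2.27 and 1.93 for Hmgcs1 and 2.98 and 2.60 for Idi1 in groups 1 and 3. The size of the change differed between the groups for 3 of 29 members, a share close to the 10.6% of all genes. Sqle rose less in group 3 (1.79) than in group 1 (2.29), a difference of -0.50 (SE 0.14, edgeR adjusted p = 0.0279). Dhcr7 did likewise, with 1.22 and 2.14 and a difference of -0.91 (SE 0.17, edgeR adjusted p = 0.00163). Insig2 fell more in group 3 (-0.88) than in group 1 (-0.37), by -0.50 (SE 0.15, edgeR adjusted p = 0.0419). This count was 1 without A022, A024, A026, A034, A036 or A037, 2 without A021, A023, A033 or A053, 5 without A042 or A043, 1 without the filter on low counts and 6 with NRK-52E fitted alone.

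In NRK-49F, sample group 4 holds only 2 samples at pH 6.0, A042 and A043. There 3 members were higher (Mvd, Msmo1 and Hsd17b7) and 1 lower (Soat1), against 12.0% and 11% of all genes. Mvd was 28.5 FPM in A042 and 12.2 FPM in A043, against 7.96 to 12.9 FPM in group 4 at pH 7.4, so A042 alone lay above that range. In sample group 6, 2 were higher (Hsd17b7 and Srebf1) and 4 lower (Fdft1, Sqle, Cyp51 and Soat1), against 10.3% and 10.9% of all genes. Hsd17b7 and Soat1 passed in both groups in this fit of all samples, with 0.92 and 1.05 for Hsd17b7 and -0.47 and -0.39 for Soat1. For Hsd17b7 in group 4, A043 (6.22 FPM) alone lay above the range at pH 7.4 (1.89 to 3.02 FPM), and A042 (2.96 FPM) lay inside it. Hsd17b7 did not pass with only sample groups 1 and 4 in the fit (0.93). The change differed between groups 4 and 6 for 0 of 29 members in edgeR's quasi-likelihood test, against 0% of all genes. At an unadjusted p under 0.05 there were 2, and DESeq2 called 0.

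Beyond the members, 62 other genes of the pathway were listed, 61 were found (Fntb was not) and 57 were tested. In NRK-52E 23 of the 57 were higher at pH 6.0 and 19 lower, against 24.7% and 36.6% of all genes, with a median log2 fold change of 0.14. The median was 0.028 with 3 genes at the floor of 3 counts set to their bound, or to 0 where no fold can be given (Arl4c, Gramd1b and Cyp27a1). Rce1, Gramd1b, Gramd1c, Ch25h, Cyp27a1 and Arl4c passed the count filter only through NRK-49F, and without them 22 of 51 were higher and 16 lower, with a median of 0.15. The lower count was 12 with NRK-52E fitted alone and 11 with only sample groups 1 and 4. In NRK-49F 10 were higher and 6 lower, against 14.5% and 14.4% of all genes, with a median of 0.052. Without Soat2, which passed the count filter only through NRK-52E, these counts hold for 56 genes with a median of 0.046. With the fit on only sample groups 3 and 6 the lower count was 3. By role, in NRK-52E 2 of 3 genes of acetyl-CoA supply rose and 1 fell, 4 of 10 genes of the isoprenoid branches (9 without Rce1) rose and 3 fell, and 4 of 9 genes of SREBP processing and sterol-regulated degradation rose and 2 fell. Of 15 genes of sterol transfer between membranes, 6 rose and 5 fell, or 5 and 4 of 13 without Gramd1b (at most 4 counts in NRK-52E) and Gramd1c. Of 7 lipoprotein receptors and genes of sterol esters, 3 rose and 3 fell. Of 3 electron carriers 2 rose and 1 fell, of 4 oxysterol enzymes 3 fell (2 of 2 without Ch25h and Cyp27a1), and of 6 other efflux and LXR genes 2 rose and 1, Arl4c, passed as lower.

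The genes named next had the 3 largest rises or falls of a line among those with a mean of at least 5 FPM across the samples. Sult2b1, an oxysterol sulfotransferase gene under this limit (3.47 FPM over all samples), had 1.14 (SE 0.35, edgeR adjusted p = 0.0157) in NRK-49F and -1.11 (SE 0.26, edgeR adjusted p = 6.91e-04) in NRK-52E. Its NRK-49F samples held 4 to 20 counts (0.166 to 0.801 FPM) at pH 7.4 and 10 to 30 counts (0.610 to 1.33 FPM) at pH 6.0. These ranges overlapped. Levels in NRK-52E were 6.38 to 12.3 FPM at pH 7.4 and 2.28 to 5.19 FPM at pH 6.0, without overlap. Lrp8, a lipoprotein receptor gene, rose most in both lines. It ranged from 0.226 to 1.09 FPM (median 0.361) in NRK-52E at pH 7.4 and from 7.25 to 19.1 FPM (median 12.8) at pH 6.0. In NRK-49F it ranged from 3.50 to 6.32 FPM (median 4.69) at pH 7.4 and was 23.6, 39.1, 32.2, 21.7 and 32.0 FPM at pH 6.0. The ranges of both pH values were separate in each line. This was a log2 fold change of 4.63 (SE 0.34, edgeR adjusted p = 4.29e-11) in NRK-52E and 2.65 (SE 0.28, edgeR adjusted p = 1.29e-07) in NRK-49F. In NRK-52E the efflux pump gene Abcg4 followed with 2.73 (SE 0.32, edgeR adjusted p = 8.77e-08), from 2.49 ± 0.890 to 16.5 ± 7.37 FPM (mean ± SD, n = 6 each). Acss2, which makes acetyl-CoA from acetate, had 1.94 (SE 0.13, edgeR adjusted p = 1.27e-11), from 4.46 ± 1.16 to 17.1 ± 1.69 FPM. Both were higher in 6 of 6 samples. Dhdds, of dolichol synthesis, fell from 183 ± 9.04 to 77.7 ± 9.43 FPM, a log2 fold change of -1.24 (SE 0.087, edgeR adjusted p = 2.53e-11), and Osbpl10, of the oxysterol-binding protein family, fell from 22.4 ± 3.09 to 12.9 ± 1.07 FPM, or -0.80 (SE 0.11, edgeR adjusted p = 6.33e-07). Both were lower in 6 of 6 samples.

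Arl4c, an LXR target, was like Mylip close to absent from NRK-52E. There it had 20 counts in A021, 2 in A022 and 6 in A033 at pH 7.4 and 0 in the other 3 samples, and at pH 6.0 it had 1 count in A024 and 0 elsewhere, which makes it at least 1.07-fold lower. It passed the count filter only through NRK-49F and could not be tested with NRK-52E alone. Without A021 the mean at pH 7.4 was 0.0761 FPM, under the level of 3 counts, and no fold can be given. With only sample groups 3 and 6 the call was lost. In NRK-49F Arl4c was 33.1 to 56.6 FPM (median 41.4) at pH 7.4 and 56.4, 63.4, 79.1, 80.0 and 77.2 FPM at pH 6.0, with 4 of 5 samples above the highest at pH 7.4. It rose there (0.73, SE 0.23, edgeR adjusted p = 0.0173), and the call was lost with only sample groups 1 and 4 (0.74) and with only groups 3 and 6 (0.66). Within the limit of 5 FPM, the largest rises in NRK-49F after Lrp8 were those of Osbpl8 (1.04, SE 0.14, edgeR adjusted p = 3.93e-06), another oxysterol-binding protein gene, and Acat1 (0.77, SE 0.10, edgeR adjusted p = 3.59e-06), the mitochondrial thiolase. Osbpl8 went from 31.1 ± 6.39 FPM (n = 6) to 64.2 ± 7.80 FPM (n = 5) and Acat1 from 97.5 ± 12.1 to 166 ± 15.1 FPM, and all 5 samples at pH 6.0 were above all 6 at pH 7.4 for both genes. Acat1 fell in NRK-52E (-0.46, SE 0.10, edgeR adjusted p = 2.84e-04). The largest falls in NRK-49F were those of Osbpl5 (-0.52, SE 0.10, edgeR adjusted p = 3.00e-04), of the NADH-cytochrome b5 reductase gene Cyb5r3 (-0.48, SE 0.10, edgeR adjusted p = 9.98e-04) and of Osbpl10 (-0.38, SE 0.11, edgeR adjusted p = 0.0138). Mean levels in NRK-49F went from 240.0 ± 16.3 to 168 ± 22.3 FPM for Osbpl5, from 442 ± 43.7 to 316 ± 36.9 FPM for Cyb5r3 and from 12.1 ± 1.36 to 9.34 ± 1.25 FPM for Osbpl10. Osbpl5 and Cyb5r3 were lower in 5 of 5 samples than every sample at pH 7.4, and Osbpl10 in 4 of 5. Osbpl10 lost its call with only sample groups 1 and 4 (-0.17).

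Since many members rose together in NRK-52E, their promoters were searched for the letters of sites that SREBP and its partner NF-Y are known to bind. RefSeq promoter windows, from 250 bases before to 50 after the start of each gene in the build GRCr8, were given for 26 of the 31 members. None was given for Pmvk, Fdft1, Sqle and Stard4, which rose in NRK-52E, or for Abcg1, which was not tested. TCACNCCAC, a sterol regulatory element, on either strand, was in 374 of 33469 windows (1.1%) and in the windows of 0 of the 26 members. CCAAT, the NF-Y box, on either strand, was in 12549 of the 33469 windows (37.5%) and in those of 18 of the 26 members (69.2%). The first share counts windows, of genes tested here or not, and the second counts genes, which held 27 windows. By their change in NRK-52E, 12 of the 16 members that rose and 6 of the other 10 held it. A match is a description of letters and not of a bound site, and a window without a match only lacks these letters.

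The sequences printed are the 200 bases before the start of the 5 members with a window whose log2 fold change in NRK-52E was above 2, a choice made after the values were seen. They show where CCAAT, or its reverse complement ATTGG, falls, and these letters are in capitals. Each runs 5′ to 3′ along the strand of its gene, in the RefSeq build GRCr8: Hmgcs1 at chr2:53382104-53382303 (+ strand), Idi1 at chr17:66547525-66547724 (− strand), Cyp51 at chr4:30991493-30991692 (+ strand), Msmo1 at chr16:29746913-29747112 (+ strand) and Insig1 at chr4:8057770-8057969 (− strand). Hmgcs1 and Idi1 hold 2 matches each, Msmo1 3, Insig1 1 and Cyp51 0.
Hmgcs1: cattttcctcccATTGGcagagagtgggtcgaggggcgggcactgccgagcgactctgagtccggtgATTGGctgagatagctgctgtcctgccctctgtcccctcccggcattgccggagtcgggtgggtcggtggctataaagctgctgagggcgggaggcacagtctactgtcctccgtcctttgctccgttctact
Idi1: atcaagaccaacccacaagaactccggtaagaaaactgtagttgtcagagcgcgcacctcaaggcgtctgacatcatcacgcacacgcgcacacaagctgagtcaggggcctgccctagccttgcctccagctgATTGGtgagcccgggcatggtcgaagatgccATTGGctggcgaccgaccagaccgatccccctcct
Cyp51: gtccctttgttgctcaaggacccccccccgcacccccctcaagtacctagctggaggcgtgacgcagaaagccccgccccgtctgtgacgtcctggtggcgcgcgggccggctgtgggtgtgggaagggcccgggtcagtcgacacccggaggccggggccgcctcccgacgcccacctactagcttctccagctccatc
Msmo1: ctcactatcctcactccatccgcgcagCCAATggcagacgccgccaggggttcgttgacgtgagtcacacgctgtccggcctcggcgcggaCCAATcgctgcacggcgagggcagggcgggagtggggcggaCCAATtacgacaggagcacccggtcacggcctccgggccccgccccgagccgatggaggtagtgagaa
Insig1: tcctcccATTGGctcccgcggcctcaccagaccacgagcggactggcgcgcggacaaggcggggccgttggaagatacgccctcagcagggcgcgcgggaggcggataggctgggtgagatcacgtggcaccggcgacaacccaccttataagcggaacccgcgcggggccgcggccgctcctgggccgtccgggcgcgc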

How the data were processed

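The gene counts deposited by the authors were used as they stand, 1 count being 1 sequenced read or read pair assigned to a gene. Their notes name HISAT2 2.1.0 for alignment and featureCounts for counting, with multi-mapping reads counted and the strand setting not named. The labels give the build rn6 and the methods of the study rn7, which was not settled. The table held 13 columns that matched no sample of the series, and these were not used. Genes were filtered with filterByExpr (minimum count 10, minimum total 15) and tested in edgeR 4.0.16 under R 4.3.3 with TMM scaling, a quasi-likelihood fit on 4 groups (8 for the comparisons of sample groups), and Benjamini-Hochberg adjustment with a threshold of 0.05. Levels at or under 3 counts were taken as a floor, which covers counting error only. In the report, folds against a group at this floor are given as lower bounds against 3 counts, since the fitted log2 fold change of Mylip, Arl4c and Gramd1b in NRK-52E depends on the prior count, and no fold is given where the other group is also under that level. The filter was applied over both lines, so a gene at the floor in 1 line could be kept by the other, and the counts of pH calls by list that hold such genes are also given without them.

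Alternatives were RLE size factors, no filter beyond 1 count, DESeq2 1.42.0, each cell line alone, the sample group as a block, sample groups 1 and 4 only, sample groups 3 and 6 only, a call by both tools, raw library sizes for the levels, and each library left out in turn. The scripts were first run on simulated counts. Other pathway genes were described with their values when among the 3 largest rises or the 3 largest falls of a line past the threshold, if their mean over all 23 samples reached 5 FPM. Sult2b1, under this limit, was added as an exception. Members and lists were chosen by name, with earlier results of these data known. Tables were summarised in Python 3.11.15 and drawn with matplotlib 3.10.9.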

Additional observations from a re-analysis of the deposited data

Results flagged for a closer look

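In groups of 5 or 6 samples, the highest or lowest sample was compared with its nearest neighbour, and it stood apart where that gap was an unusually large share of the group's range. Among 159 pairs of a gene and a group there were 15 such values, and chance picks out about 1 in 20 groups. A035 accounts for 5 of them and A042 for 4.

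In NRK-52E at pH 7.4, A035 was highest in Pmvk (65.8 FPM), Npc2 (335 FPM), Nr1h2 (192 FPM), Nr1h3 (0.509 FPM) and Cyb5r3 (673 FPM). In NRK-52E at pH 6.0, Mvk was lowest in A025 (11.9 FPM), Abcg1 highest in A024 (0.266 FPM) and Nr1h3 highest in A026 (0.495 FPM). In NRK-49F at pH 6.0, A042 was highest in Hmgcs1 (33.6 FPM), Cyp51 (111 FPM) and Dhcr7 (32.6 FPM) and lowest in Mylip (25.1 FPM), and Insig2 was highest in A055 (18.7 FPM). In NRK-49F at pH 7.4, Dhcr7 was lowest in A041 (19.6 FPM) and Acss2 highest in A052 (25.8 FPM).

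The other values are differences of a pH change between the lines or between sample groups, each past the threshold in edgeR's test of the difference itself. The log2 fold change in NRK-52E minus that in NRK-49F was 1.88 for Acat2, 2.26 for Hmgcs1, 1.23 for Mvd, 3.00 for Idi1, 1.36 for Fdft1, 2.26 for Sqle, 1.67 for Lss and 2.96 for Cyp51. It was 2.02 for Msmo1, 1.28 for Sc5d, 1.49 for Dhcr7, 2.37 for Insig1, -0.51 for Insig2, 1.47 for Srebf2 and -0.60 for Scap. Stard4 had 1.52, Npc2 0.84, Soat1 0.62, Nr1h2 0.72 and Mylip -5.35, the last of which is a fitted value that rests on few counts in NRK-52E, depends on the prior count and gives no size of a difference. Of the other pathway genes, the differences were 1.98 for Lrp8, 2.32 for Abcg4, 2.05 for Acss2, -4.64 for Arl4c (likewise), -1.40 for Dhdds, -0.42 for Osbpl10, -1.20 for Osbpl8 and -1.22 for Acat1. The difference of Osbpl10 did not pass without A021 (-0.40) or A042 (-0.34). Within NRK-52E, the change in sample group 3 minus that in group 1 was -0.50 for Sqle, -0.91 for Dhcr7, -0.50 for Insig2 and -0.71 for Acss2. The count of such members, 3, was 1 to 5 with each library left out in turn.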

How the results depend on the processing

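Of the 12 counts of calls, those of members higher in NRK-52E (20; 19 to 21 under the alternatives), members lower in NRK-52E (4; 3 to 4), members whose change differed between the lines (20; 18 to 21) and members that differed between the lines at pH 7.4 (19; 17 to 20) stayed within 1.5 times. With each cell line alone, other pathway genes lower in NRK-52E numbered 12 instead of 19, members higher in NRK-49F 2 instead of 1, and members whose change differed between the sample groups of NRK-52E 6 instead of 3. Without the filter on low counts the last of these was 1. With the sample group as a block, members higher in NRK-49F numbered 5. With only sample groups 1 and 4, other pathway genes lower in NRK-52E numbered 11, members higher in NRK-49F 2 and members lower in NRK-49F 1 instead of 2. With only sample groups 3 and 6, members lower in NRK-49F numbered 4 and other pathway genes lower in NRK-49F 3 instead of 6. These last fits hold fewer samples, and otherwise the cause was not tested. With each library left out in turn, members higher in NRK-49F numbered 1 to 3, members lower in NRK-49F 1 to 2 and members whose change differed between the sample groups of NRK-52E 1 to 5. Raw library sizes, used for the levels only, left 119 of 124 levels classed as the same and 5 as moved.

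Some log2 fold changes near 0 changed sign, and the cause was not tested. In NRK-52E these were Mvk (0.042, only groups 1 and 4), Tm7sf2 (-0.21, only groups 3 and 6) and Nsdhl (0.045, line alone, and 0.14, only groups 1 and 4). In NRK-49F with only groups 1 and 4 they were Acat2 (0.024), Idi1 (0.082), Fdft1 (0.14), Nsdhl (0.17), Insig1 (0.14), Srebf2 (0.19) and Mylip (-0.037), and with only groups 3 and 6 Abca1 (0.052). The difference between the lines turned with only groups 1 and 4 for Mvk (0.052), Pmvk (-0.34), Tm7sf2 (0.026) and Hsd17b7 (-0.25), and for Nsdhl with RLE size factors (0.029) or DESeq2 (0.030). With each library left out in turn, the sign turned for Nsdhl in NRK-52E (-0.090 to 0.010). In NRK-49F it turned for Lss (-0.0047 to 0.22), Nsdhl (-0.074 to 0.017), Insig1 (-0.14 to 0.025), Srebf2 (-0.10 to 0.015), Npc1 (-0.026 to 0.25), Abca1 (-0.30 to 0.035) and Nr1h2 (-0.072 to 0.069). The difference between the lines turned for Mvk (-0.19 to 0.028), Nsdhl (-0.066 to 0.034) and Hsd17b7 (-0.087 to 0.21). None of these values was past the threshold of edgeR in the fit reported. No paired analysis was possible because the replicate codes of the groups share no number. At this depth Abcg1 and Nr1h3 could not be tested, and Mylip could not be given a fold without A021.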
